A study of Mus musculus with 6 samples.

Results

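The genes described here are the potassium channel genes of mouse gastrocnemius, the large calf muscle: every gene whose mouse symbol begins with Kcn, apart from the noncoding Kcnq1ot1, with at least 10 counts summed over the 6 libraries. Of 49315 genes in the tables, 98 carried such a symbol and 66 met the count rule, all of them protein coding. The other 32 had fewer counts, and 12 of the 98 had none in any library. Just inside the rule stood Kcnh5, Kcnip2 and Kcns1 with 14 summed counts each, and just outside it Kcng2 with 8 and Kcnab3 and Kcne1 with 7 each. RNA was sequenced in 3 WT libraries and in 3 libraries labelled as a muscle-specific knockout (mKO) of Hnrnpu. Hnrnpu encodes a nuclear RNA-binding protein with roles in chromatin and splicing. All animals were 3 months old and of a mixed C57BL/6 129 background. The labels do not give the driver of the deletion, the deleted exons or whether each library came from 1 animal, and the p-values therefore rest on library-to-library spread alone, which may be technical.

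Potassium channels let potassium leave or enter the cell along its gradient. In muscle fibres they set the resting membrane potential, end each action potential and limit firing when the fibre is short of energy. Most pore-forming subunits belong to the voltage-gated (Kv), inward rectifier (Kir), tandem-pore (K2P) or calcium-activated families, and auxiliary subunits that form no pore tune how and where the channels open.

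The pore of these channels is lined by a short selectivity filter that is encoded by a recognisable run of codons. The longest open reading frame of each gene's GENCODE M21 transcripts was searched in frame for 5 codons that encode threonine or serine, then valine, isoleucine or leucine, then glycine, tyrosine or phenylalanine, and glycine. The search took the 49 members that also have an entry in the RefSeq promoter table of GRCm38.p6. The codons were found in 36 of the 49, against 82 of 21783 other coding genes (0.376%). They were in every searched member of Kv1 to Kv4, of the inward rectifiers and of the KCNQ and EAG genes, and also in all 4 searched silent subunits. Of 4 tandem-pore members 3 held them, each 2 times, and Kcnk1 held no match to this pattern. They were found in 5 of 8 calcium- or sodium-activated members, the other 3 being the auxiliary Kcnmb genes, and in none of the 8 searched genes of the auxiliary group. The filter is given here for some pore-forming or silent subunits that the results turn on, 5′ to 3′ on the coding strand, with the 5 codons in capitals and 9 bases on either side.
Kcnj2: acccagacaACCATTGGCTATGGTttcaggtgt
Kcnj8: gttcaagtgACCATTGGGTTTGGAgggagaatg
Kcna7: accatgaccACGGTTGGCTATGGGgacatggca
Kcnf1: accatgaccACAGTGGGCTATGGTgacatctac
Kcng4: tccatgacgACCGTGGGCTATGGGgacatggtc
Kcnh7: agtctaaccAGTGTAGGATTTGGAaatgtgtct
Kcnn1: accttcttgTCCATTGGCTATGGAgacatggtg
The fourth codon encoded tyrosine in 27 members and phenylalanine in 10, among them Kcnj8 and Kcnh7, and Kcnk5 held both kinds in its pair of pores.

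Kcnf1, Kcnab1 and Kcnq5 fell most among the better-measured genes, the inward rectifiers Kcnj8, Kcnj11 and Kcnj12 fell about 2-fold, and Kcnn3 rose 4.34-fold. Levels are CPM, counts scaled to a common library size after TMM adjustment, and fold changes are mKO over WT. On this TMM scale, summed over the 66 members, WT replicates 1 to 3 held 705, 692 and 634 CPM, and mKO replicates 1 to 3 held 469.97, 425 and 471 CPM. The mean was 677 ± 38.0 CPM in WT and 455 ± 26.1 CPM in mKO (SD, n = 3), and the groups did not overlap on this scale. The fall of the sum depends on the scaling, since the TMM factors were 0.845 to 0.859 in WT and 1.15 to 1.20 in mKO. Scaled by library totals alone, the members summed to 605, 587 and 535 CPM in WT and 564, 497 and 543 CPM in mKO, and the groups overlapped. The default low-count filter left 43 of the 66 members for testing. Of these, 8 were higher and 14 lower by edgeR's quasi-likelihood test with Benjamini-Hochberg adjustment at 0.05, 22 of 43 (51.2%). Of all 16650 genes tested, 37.0% passed, 18.2% higher and 18.9% lower. Changes of at least 2-fold among the called members numbered 6 higher and 10 lower, 16 of 43. At that size 14.2% of all 16650 genes tested passed, 1461 higher and 898 lower. Groups did not overlap in 24 of the 43 (55.8%), against 49.3% of all genes tested. The median log2 change was -0.31 over the 43 members and 0.02 over all genes. Scaling by library totals moved the median of all genes up by 0.465 and that of the members to 0.15, still below it. All 22 called members kept their direction under every alternative run, and with library totals 10 were called higher and 10 lower. The size of the falls was less stable. The smallest in any alternative was log2 -0.75 for Kcnj8, -0.59 for Kcnj11 and -0.60 for Kcnj12, each short of 2-fold. In bulk muscle, fewer cells of a type and less RNA per cell cannot be told apart.

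**Figure D1:**
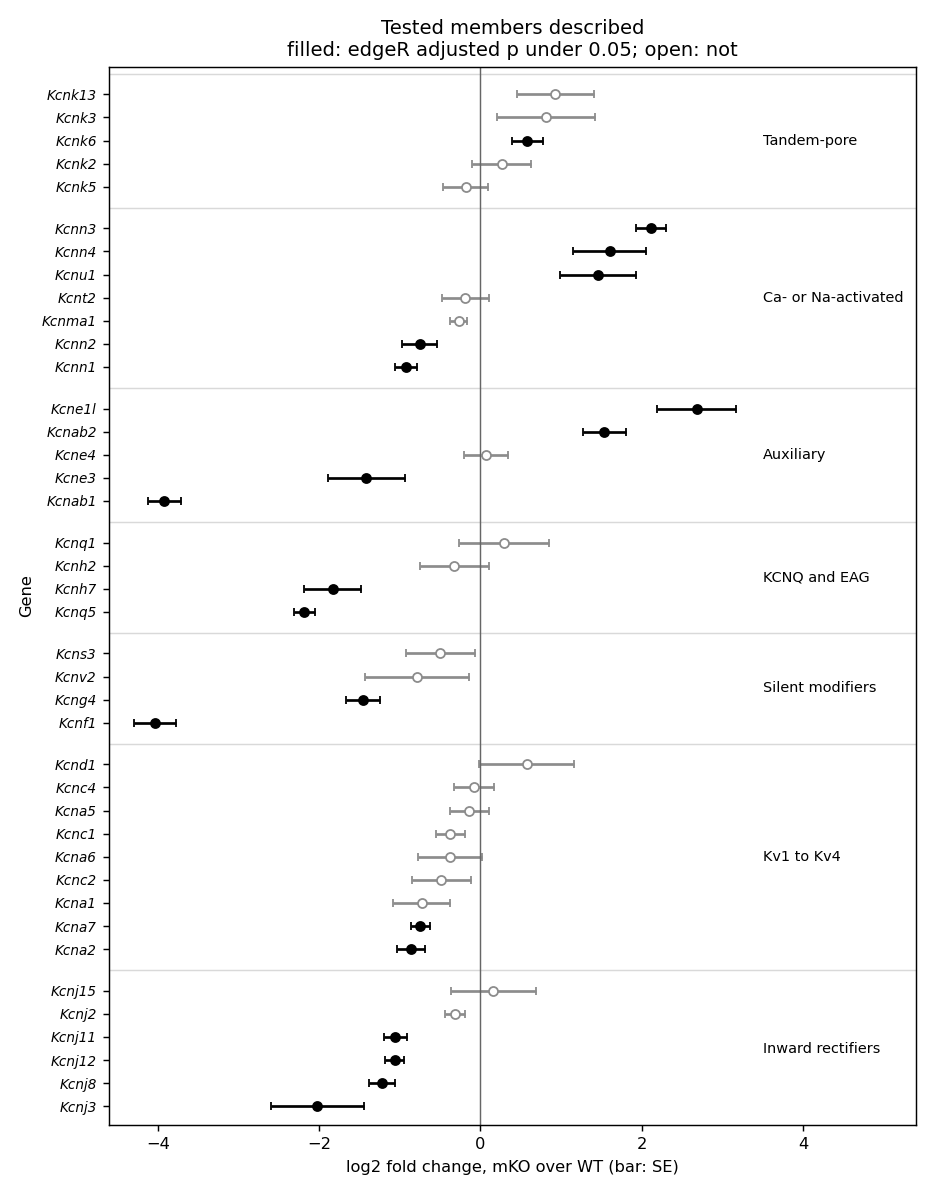
Fitted log2 fold change (mKO over WT) of the tested members described here, with its standard error, grouped by subfamily. Filled points passed the adjusted threshold of 0.05; the inward rectifiers and silent subunits hold no called rise, and Kcnf1 (-4.03) and Kcnab1 (-3.92) lie farthest to the left.

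The libraries held 32108684 to 42344238 counts, of which 17441 to 22654 fell on the members, and 1 count was worth 0.0220 to 0.0334 CPM. Hnrnpu had 233, 235 and 247 CPM in WT and 209, 210.4 and 205 CPM in mKO-labelled libraries. This difference was not called (log2 -0.20, SE 0.10, edgeR adjusted p = 0.147). Reads were summed over all exons, so a deletion of a few exons need not show, and directions are those of the libraries as labelled. Fibre markers were abundant in all libraries, 211554 to 224982 CPM summed over 7 genes in WT and 146796 to 177501 CPM in mKO, with 5 of the 7 lower and Des higher. Most of these sums was Ttn, at 172820 CPM in WT and 143911 CPM in mKO, which was not called (log2 -0.26, edgeR adjusted p = 0.126). The sums are on the TMM scale and, like that of the members, depend on the scaling. Libraries of a group differed beyond sampling noise, and none was a copy of another.

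Inward rectifiers carried most of the potassium channel counts, and 4 of the 6 tested fell while none rose. Kcnj2 encodes Kir2.1, the strong inward rectifier that holds the resting potential of muscle fibres. It was the most abundant member, with 261, 209.7 and 219 CPM in WT and 190.4, 167 and 198 CPM in mKO. The groups did not overlap, yet no call was made (log2 -0.31, SE 0.12, edgeR adjusted p = 0.0612). It passed without WT replicate 2 (0.0280) and by DESeq2 (0.0433), and its sign turned with library totals (log2 0.15).

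Kcnj12, which encodes the related Kir2.2, fell from 49.3, 45.8 and 54.5 CPM to 26.3, 23.5 and 21.8 CPM (log2 -1.06, SE 0.12, edgeR adjusted p = 2.25e-05). The highest mKO library stood well below the lowest WT library. The ratio of Kcnj12 to Kcnj2 per exon length, which no library scaling touches, was 0.375, 0.432 and 0.493 in WT and 0.273, 0.279 and 0.218 in mKO.

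The pore subunits of the ATP-sensitive potassium channel fell too. Kcnj11 encodes Kir6.2, its pore in skeletal muscle fibres, and fell from 56.0, 69.3 and 53.7 CPM to 32.3, 23.4 and 30.3 CPM (log2 -1.06, SE 0.14, edgeR adjusted p = 0.000109). Kcnj8 encodes Kir6.1, the pore known from vascular smooth muscle and pericytes, and fell from 21.4, 15.4 and 16.8 CPM to 8.06, 8.31 and 6.61 CPM (log2 -1.22, SE 0.16, edgeR adjusted p = 7.74e-05). For neither gene did the groups overlap. Their sulphonylurea receptor partners showed no call: Abcc9 had 344 ± 56.4 CPM in WT and 319 ± 39.6 CPM in mKO (SD, n = 3), log2 -0.11, edgeR adjusted p = 0.580, and Abcc8 stayed under 1 CPM in all libraries. The Kcnj8 to Abcc9 ratio per exon length was 0.228, 0.124 and 0.176 in WT and 0.0946, 0.0760 and 0.0684 in mKO.

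Beside the fall of Kcnj8, the 9 listed smooth muscle and pericyte markers summed to 1744 to 1976 CPM in WT and 1819 to 2024 CPM in mKO, with 2 higher and 2 lower. Most of that sum was Des, at 1154 CPM in WT and 1547 CPM in mKO. Without Des, a sum added after the values were seen, the other 8 markers held 674 to 741 CPM in WT and 368 to 403 CPM in mKO. Rgs5 alone made up most of that sum and nearly all of its fall, and 5 of the 9 listed markers were not called. The higher pair was Acta2 and Des, of which Des is also on the muscle fibre list, and the lower pair Myh11 and Rgs5. Acta2 rose from 26.0 to 38.5 CPM (log2 0.57, edgeR adjusted p = 0.00342). Rgs5, a pericyte gene, fell from 581 to 258 CPM (log2 -1.17, edgeR adjusted p = 6.55e-06), while Pdgfrb had 31.3 and 32.2 CPM (log2 0.04, edgeR adjusted p = 0.876). Endothelial markers were lower in 8 of 9 cases. The part of these cells in the Kcnj8 result was not tested.

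Kcnj3 encodes a subunit of G protein-gated channels and was rare, with 0.568, 0.552 and 1.03 CPM in WT and 0.0441, 0.247 and 0.243 CPM in mKO (log2 -2.02, SE 0.58, edgeR adjusted p = 0.0151). Its call ended without WT replicate 3 (0.0912) or mKO replicate 1 (0.0516), and 31.1% of its exon bases overlap an exon of the opposite-strand gene Gm26794. Kcnj15 was under 1 CPM and did not pass (log2 0.16, SE 0.53).

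**Figure D2:**
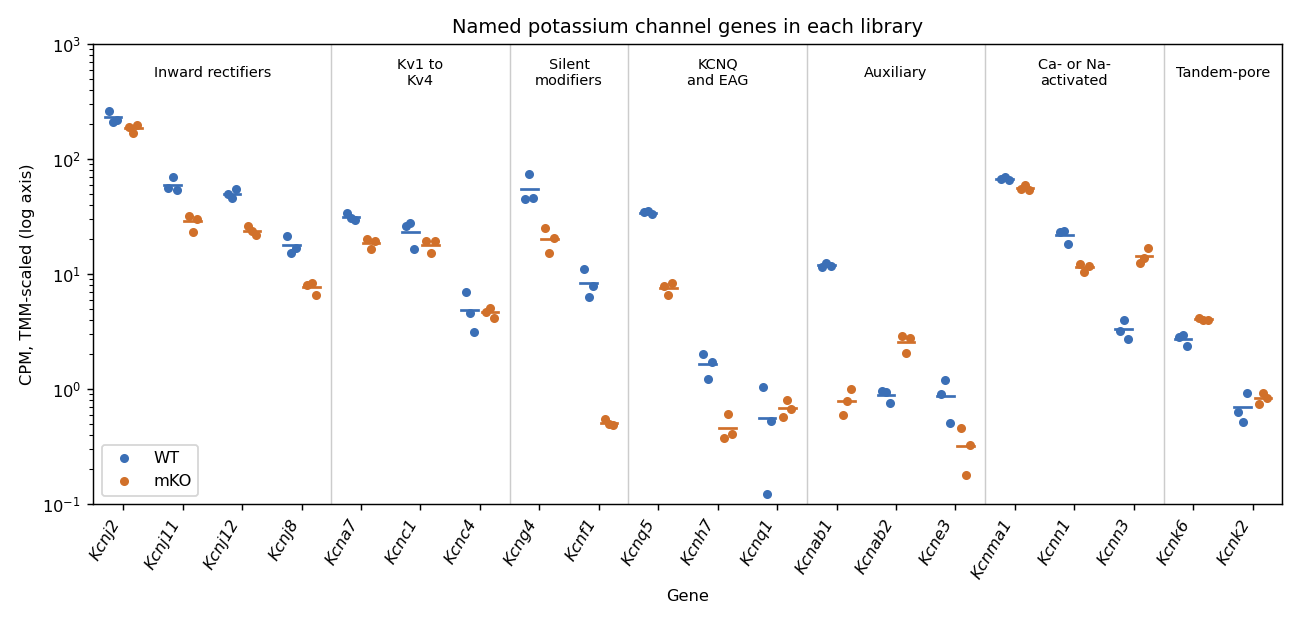
CPM of the named potassium channel genes in each library on a log axis, WT in blue and mKO in orange, with a line at each group's mean. Kcnab1 and Kcnf1 fall below 1 CPM in all 3 mKO libraries, Kcnn3 stands above 12 CPM in all 3, and Kcnj2 stays the most abundant in both groups.

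Among the 11 tested voltage-gated conducting genes of Kv1 to Kv4, 2 fell, 1 rose and 8 did not pass. Kcna7 encodes Kv1.7, a channel of muscle and heart, and was the most abundant of them per length. It fell from 34.2, 30.5 and 29.5 CPM to 20.2, 16.6 and 19.4 CPM (log2 -0.75, SE 0.12, edgeR adjusted p = 0.000382), with no overlap. Kcna2, which encodes Kv1.2, fell from 7.45, 6.87 and 5.59 CPM to 3.5, 3.7 and 3.75 CPM (log2 -0.86, SE 0.17, edgeR adjusted p = 0.00195). With library totals both calls were lost (adjusted p = 0.0690 for Kcna7 and 0.0750 for Kcna2).

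Kv3 channels open fast and shorten action potentials. Kcnc1 (Kv3.1) had 26.1, 27.7 and 16.4 CPM in WT and 19.5, 15.1 and 19.5 CPM in mKO, overlapping groups with log2 -0.37 (SE 0.18, edgeR adjusted p = 0.129). The difference passed without the low WT replicate 3 (log2 -0.58, adjusted p = 0.0113), and also with all libraries and no low-count filter (log2 -0.37, adjusted p = 0.0355). Kcnc4 (Kv3.4) had 6.98, 4.63 and 3.13 CPM against 4.69, 5.03 and 4.18 CPM, with overlapping groups (log2 -0.08, SE 0.25, edgeR adjusted p = 0.836).

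Kcna1, Kcna5, Kcna6, Kcnc2 and Kcnd1 ranged from log2 -0.73 to 0.57 with overlapping groups, and none passed.

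Silent subunits form no channel by themselves and change the gating of Kv2 channels they join. Of 4 tested, 2 fell and none rose, and both were far from the WT range. Kcnf1 encodes Kv5.1 and sits on chromosome 12 (GRCm38, 17172100 to 17176888, minus strand). It dropped from 11.1, 6.38 and 7.80 CPM to 0.551, 0.494 and 0.486 CPM, a 16.4-fold lower level (log2 -4.03, SE 0.26, edgeR adjusted p = 4.67e-07). In counts this was 333, 208 and 279 against 25, 22 and 18. Kcng4 encodes Kv6.4 and was the fourth most abundant member per length in WT. It fell from 44.9, 74.6 and 45.8 CPM to 24.9, 15.1 and 20.5 CPM (log2 -1.45, SE 0.21, edgeR adjusted p = 0.000188).

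For both genes every mKO library lay below every WT library. Kcns3 (log2 -0.50, SE 0.43) and Kcnv2 (log2 -0.79, SE 0.64) were under 1 CPM and did not pass.

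The start regions of Kcnf1 and Kcng4, which fell together, and of Kcnn3, which rose, are shown as RefSeq promoters of GRCm38.p6, from 250 bases before to 50 after the start, 5′ to 3′ on the gene's strand. Capitals mark the E-box CAGCTG, a sequence that myogenic factors are known to bind.
Kcnf1 (chr12:17176839-17177138, minus strand): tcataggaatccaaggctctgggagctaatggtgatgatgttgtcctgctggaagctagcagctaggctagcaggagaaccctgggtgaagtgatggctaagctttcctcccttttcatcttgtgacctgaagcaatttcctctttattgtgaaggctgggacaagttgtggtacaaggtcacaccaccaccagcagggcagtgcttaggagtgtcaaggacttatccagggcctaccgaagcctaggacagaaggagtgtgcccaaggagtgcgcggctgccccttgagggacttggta
Kcng4 (chr8:119635631-119635930, minus strand): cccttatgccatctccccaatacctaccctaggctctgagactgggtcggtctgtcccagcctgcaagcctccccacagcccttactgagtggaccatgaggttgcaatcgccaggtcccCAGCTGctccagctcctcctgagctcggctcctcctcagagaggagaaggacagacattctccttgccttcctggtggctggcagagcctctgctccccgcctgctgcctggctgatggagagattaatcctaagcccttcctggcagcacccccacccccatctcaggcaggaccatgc
Kcnn3 (chr3:89519914-89520213, plus strand): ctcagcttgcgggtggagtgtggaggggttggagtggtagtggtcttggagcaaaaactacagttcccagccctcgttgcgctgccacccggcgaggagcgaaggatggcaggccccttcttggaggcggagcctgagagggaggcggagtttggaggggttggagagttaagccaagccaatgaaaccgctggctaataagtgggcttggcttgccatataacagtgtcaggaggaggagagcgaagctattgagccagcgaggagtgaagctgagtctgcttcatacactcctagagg
The promoter table held 66 windows of 49 members, some of which overlap as alternative starts of 1 gene. CAGCTG, which reads the same on both strands, was in 19 of these windows (28.8%) and in 16.3% of all 32851 windows of this length. A loose form of the MEF2 box (CTA and TAG separated by any 4 bases, searched on both strands) was in none of the members' windows and in 3.69% of all windows. These are descriptions of letters in the window and not of bound sites.

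KCNQ genes encode slowly opening Kv7 channels that damp repeated firing, and Kcnq5 was the most abundant of those described here. Kcnq5 (Kv7.5) fell from 34.7, 35.1 and 33.0 CPM to 7.87, 6.51 and 8.29 CPM, 4.54-fold lower (log2 -2.18, SE 0.13, edgeR adjusted p = 2.01e-07). The WT libraries lay within 3 CPM of each other, and no mKO library came near them.

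Kcnq1, best known from heart, had 1.04, 0.123 and 0.531 CPM in WT and 0.573, 0.808 and 0.675 CPM in mKO, with overlapping groups (log2 0.29, SE 0.56, edgeR adjusted p = 0.717; log2 -0.18 without WT replicate 2). Its locus also holds the antisense transcript Kcnq1ot1, at 165 ± 14.4 CPM in WT and 188 ± 17.9 CPM in mKO (SD, n = 3; log2 0.19, edgeR adjusted p = 0.229). Kcnq1ot1 is much longer, with 84395 exon bases against 4093 for Kcnq1, so the CPM of the pair overstate their difference in level. The exons of the pair overlap by 121 bases, and the kit named in the labels keeps no strand information. Of the EAG family, Kcnh7 (Kv11.3) fell from 2.00, 1.23 and 1.73 CPM to 0.375, 0.606 and 0.405 CPM (log2 -1.83, SE 0.35, edgeR adjusted p = 0.00145), and 4.57% of its exon bases overlap the opposite-strand gene Gca. Kcnh2, the hERG channel gene, had overlapping groups (log2 -0.32, SE 0.43, edgeR adjusted p = 0.593).

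Auxiliary subunits held the second largest fall among the tested members and also the largest rise: of 5 tested, 2 fell and 2 rose. Kcnab1 encodes the beta subunit Kvβ1, which binds Kv1 channels inside the cell and speeds their inactivation, and lies on chromosome 3 from 65109384 to 65378223 in GRCm38. It dropped from 11.6, 12.4 and 11.9 CPM to 0.595, 0.786 and 0.999 CPM, 15.2-fold lower (log2 -3.92, SE 0.21, edgeR adjusted p = 1.18e-07). The WT libraries lay within 1 CPM of each other, and the mKO libraries all stood below 1 CPM. Kcnab2, which encodes the sister subunit Kvβ2, rose from 0.969, 0.950 and 0.755 CPM to 2.89, 2.07 and 2.81 CPM (log2 1.54, SE 0.27, edgeR adjusted p = 0.000672). Per exon length the ratio of Kcnab2 to Kcnab1 was 0.129, 0.118 and 0.0981 in WT and 7.47, 4.05 and 4.33 in mKO.

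The Kcne genes encode small single-span partners. Kcne1l (also Kcne5), named here though under 1 CPM, rose from 0.0668, 0.184 and 0.112 CPM to 0.793, 0.741 and 0.864 CPM (log2 2.68, SE 0.49, edgeR adjusted p = 0.00100), which was 2, 6 and 4 counts against 36, 33 and 32. Kcne3, which encodes a partner of Kv3.4 in skeletal muscle, had 0.902, 1.20 and 0.504 CPM in WT and 0.463, 0.180 and 0.324 CPM in mKO (log2 -1.41, SE 0.48, edgeR adjusted p = 0.0357). Its call ended without WT replicate 1 (0.0728), WT replicate 2 (0.139), mKO replicate 2 (0.125) or mKO replicate 3 (0.0878), and also with library totals (0.114) and with the replicate number as a block (0.0666). Kcne4 had 1.41 ± 0.25 CPM in WT and 1.48 ± 0.201 CPM in mKO (SD, n = 3), with overlapping groups.

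Among calcium-activated channels the small-conductance family changed its make-up. Kcnn3 encodes SK3, the apamin-sensitive channel known from immature and denervated fibres. It rose from 3.17, 4.02 and 2.71 CPM to 12.4, 13.8 and 16.8 CPM, 4.34-fold (log2 2.12, SE 0.18, edgeR adjusted p = 4.06e-06). Kcnn1 (SK1) fell from 23.1, 23.8 and 18.1 CPM to 12.1, 10.5 and 11.6 CPM (log2 -0.92, SE 0.14, edgeR adjusted p = 0.000225). Kcnn2 (SK2) fell from 4.05 ± 0.641 to 2.40 ± 0.461 CPM (SD, n = 3; log2 -0.75, SE 0.22, edgeR adjusted p = 0.0176), a call that ended without WT replicate 1 (0.0566), without mKO replicate 1 (0.0750) and with library totals (0.278). As a share of the summed level of the 4 Kcnn genes per exon length, Kcnn3 made up 5.05, 6.16 and 5.53% in WT and 27.7, 31.8 and 34.6% in mKO. Kcnn1 remained the most abundant of the 4 in every library, with 83.9, 83.0 and 84.1% in WT and 61.8, 55.0 and 54.6% in mKO.

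**Figure D3:**
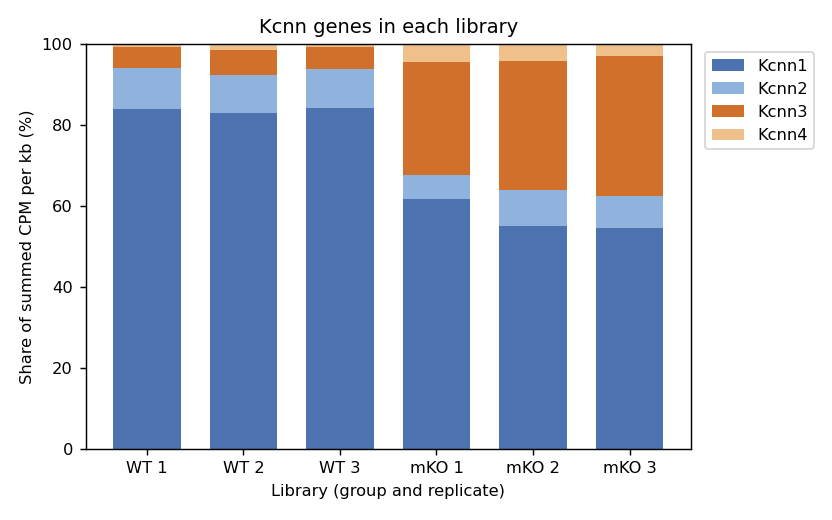
Share of Kcnn1 to Kcnn4 in their summed CPM per kilobase of exon, 1 stacked bar per library. Kcnn3 takes 5.05 to 6.16% of the bar in WT libraries and 27.7 to 34.6% in mKO libraries.

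Kcnn4 encodes the intermediate-conductance channel of immune and red blood cells. It rose from 0.234, 0.460 and 0.168 CPM to 0.992, 0.898 and 0.729 CPM (log2 1.60, SE 0.45, edgeR adjusted p = 0.0147), a call that ended without WT replicate 3 (0.0639) or mKO replicate 1 (0.0545). Beside this, all 11 listed macrophage and myeloid markers were higher, with summed levels of 278 to 331 CPM in WT and 588 to 963 CPM in mKO. None of them was at 0, and the red blood cell markers summed to 13.7 to 17.6 CPM in WT and 3.19 to 6.35 CPM in mKO. The part of infiltrating cells in the rises of Kcnn4, Kcnab2 and Kcnk6 was not tested.

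Kcnma1 encodes the pore of the large-conductance BK channel. It had 67.5, 69.4 and 65.8 CPM in WT and 54.8, 60.01 and 53.4 CPM in mKO, groups that did not overlap but were not called different (log2 -0.27, SE 0.10, edgeR adjusted p = 0.0579), and its sign turned with library totals (log2 0.20). Kcnu1, which encodes the sperm channel Slo3, was at 0.468, 0.307 and 0.308 CPM in WT and 1.21, 0.471 and 1.30 CPM in mKO (log2 1.46, SE 0.47, edgeR adjusted p = 0.0270). Its call ended without WT replicate 2 (0.0703), WT replicate 3 (0.0903), mKO replicate 1 (0.0992) or mKO replicate 3 (0.109), and with limma-voom (0.0664). Kcnt2, a sodium-activated channel gene, had overlapping groups (log2 -0.19, SE 0.29).

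Tandem-pore channels carry background leak currents, and of 5 tested 1 rose and none fell. Kcnk6 (TWIK2) had 2.84, 2.97 and 2.35 CPM in WT and 4.19, 4.02 and 4 CPM in mKO (log2 0.58, SE 0.19, edgeR adjusted p = 0.0301), with no overlap. The call ended in each fit without 1 library except that without WT replicate 2, with adjusted p from 0.0526 to 0.105, and also with DESeq2 (0.0501) and without a low-count filter (0.0517). Kcnk2 (TREK1) had 0.635, 0.521 and 0.923 CPM against 0.749, 0.921 and 0.837 CPM, overlapping groups with log2 0.26 (SE 0.36, edgeR adjusted p = 0.611). Kcnk13 (THIK1), known from microglia, had 1.20, 0.552 and 0.224 CPM against 1.41, 1.0103 and 1.30 CPM and was not called (log2 0.93, SE 0.48, edgeR adjusted p = 0.147). It passed without WT replicate 1 (log2 1.67, adjusted p = 0.0144) and with library totals (log2 1.39, adjusted p = 0.0254). Kcnk3 and Kcnk5 had overlapping groups.

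The 23 members that the filter left out averaged at most 0.275 CPM, and in 15 of them the groups overlapped. In 5 every mKO library exceeded every WT library and in 3 it was the reverse. Groups did not overlap in 49.3% of all genes tested, but those genes passed the filter, and the share among the genes left out was not counted. Kcnh1 (EAG1) had 2, 2 and 0 against 17, 11 and 6 counts, and Kcnmb4, a BK beta subunit, 0, 2 and 0 against 6, 4 and 16 counts. Both were called when no low-count filter was used (edgeR adjusted p = 0.0406 and 0.0376). On the low side, Kcnrg, a regulator of Kv channel assembly, had 10, 7 and 9 against 2, 2 and 2 counts, and Kcnb2 (Kv2.2) 9, 3 and 5 against 1, 2 and 1 counts, neither called without the filter.

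Ordered by level per exon length, which is the scale on which genes can be compared, Kcnj2 led in WT with 42.2 ± 4.98 CPM per kb. Next came Kcnj12 (18.1 ± 1.60), Kcnj11 (16.2 ± 2.29), Kcng4 (14.5 ± 4.45) and Kcna7 (14.4 ± 1.12 CPM per kb; SD, n = 3), neighbours that lay within their spread of each other. These 5 made up 70.1, 70.6 and 71.0% of the summed level per length in WT and 69.2, 65.3 and 68.6% in mKO. In mKO, Kcnj2 again led with 34.0 ± 2.97 CPM per kb, followed by Kcnj12 (8.68 ± 0.825), Kcna7 (8.58 ± 0.848), Kcnma1 (8.07 ± 0.505) and Kcnj11 (7.79 ± 1.26 CPM per kb). Kcnf1 went from rank 11 to 38 of 66, Kcnab1 from 12 to 40 and Kcnq5 from 9 to 14, while Kcnn3 went from 25 to 11. The called rises were all among genes with a mean under 10 CPM over the 6 libraries, a split chosen after the values were seen. Kcnn3 was among them, though it averaged 14.3 CPM in mKO. Of the 11 members with a mean of at least 10 CPM, 7 were lower, none higher and 4 did not pass. Of the other 32 tested, 8 were higher, 7 lower and 17 did not pass. Of all genes tested, at any level, 18.2% passed higher and 18.9% lower, and shares by level were not counted. The difference between these splits was not tested.

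**Figure D4:**
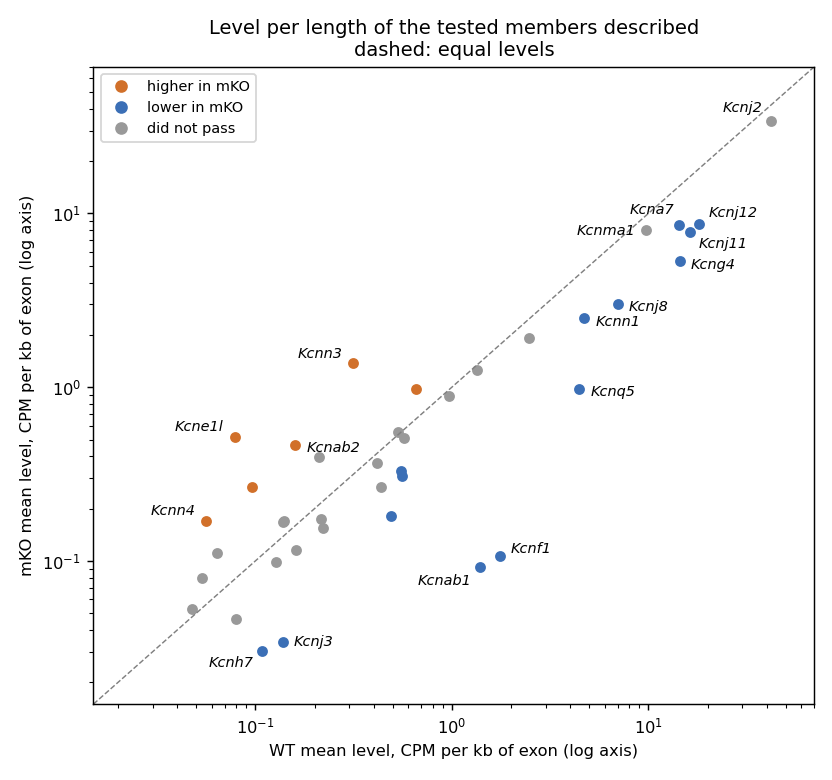
Mean level per kilobase of exon in WT (horizontal) and mKO (vertical) for the tested members described here, both on log axes, with called genes coloured and the dashed line marking equal levels. Kcnf1 and Kcnab1 lie far below the line, and the 5 most abundant genes in WT lie below it, led by Kcnj2 at 42.2 and 34.0 CPM per kb.

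Genes that encode partners, regulators and other parts of potassium handling were taken from a list of 50 symbols, 46 of which were tested. Of these, 17 were lower and 3 higher, with 26 not passing and a median log2 change of -0.24. Of all genes tested, 18.9% were lower and 18.2% higher, with a median of 0.02. With library totals the count turned to 11 lower and 19 higher, where 1124 of all 16650 genes tested were lower and 8159 higher. The BK gamma subunit genes fell: Lrrc38 from 12.1 to 5.98 CPM (log2 -1.015), Lrrc52 from 4.11 to 1.18 CPM (log2 -1.80) and Lrrc55 from 0.628 to 0.122 CPM (log2 -2.35), with edgeR adjusted p from 0.000137 to 0.00372. The fourth gamma gene, Lrrc26, was not tested, and the BK pore gene Kcnma1 itself did not pass. Calm2 (log2 -0.89) and Calm3 (log2 -0.72), which encode calmodulin, the calcium sensor bound to SK channels, fell.

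Tmem38a encodes TRIC-A, a potassium-permeable channel of the sarcoplasmic reticulum, and fell from 680 ± 56.2 to 312 ± 0.616 CPM (SD, n = 3; log2 -1.12, edgeR adjusted p = 9.20e-06), while its paralog Tmem38b had log2 0.01. The sodium-potassium pump genes Atp1b1 (log2 -0.78) and Fxyd1 (log2 -0.70), a subunit and a regulator, fell. The chloride cotransporter gene Slc12a2 fell (log2 -0.81) and Slc12a7 rose (log2 0.52), while Slc12a4 and the pump subunit gene Atp1b2 did not pass. Scaffold and anchoring genes on the list went different ways. Lower were Dlg1 (log2 -0.83), Ank2 (log2 -0.49) and Akap9 (log2 -0.38), whereas Cttn, which encodes cortactin, rose (log2 0.63). The Akap9 change was smaller than the 0.465 shift of all genes with library totals, and that of Ank2 only just larger. With library totals 11 genes of the list were called lower, against 17 with TMM, so some of the falls named from this list end with that scaling or come near it. Dlg2, Dlg4, Ank3, Actn2, Flna, Cav3, Sntb1 and Akap5 did not pass, with log2 changes from -0.42 to 0.48. Also lower were Abcb8 (log2 -0.75) and the muscle transcription factor gene Mef2c (log2 -0.68). Rest, which encodes a repressor of neuronal genes, had 18.5 and 18.9 CPM (log2 0.02, edgeR adjusted p = 0.906).

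Markers of nerve and other cells were measured beside the Kv1 and Kcnq results, since axons and glia also hold such channels. None of 9 Schwann cell markers passed, with summed levels of 48.5 to 55.9 CPM in WT and 36.7 to 83.3 CPM in mKO. Of 7 neuron markers 5 were too rare to test, Tubb3 was higher (log2 1.68) and Stmn2 lower (log2 -1.12), and their sum was 3.34 to 3.83 CPM in WT and 2.24 to 2.95 CPM in mKO. The summed satellite cell and myoblast markers were at 20.9 to 24.1 CPM in WT and 47.1 to 64.6 CPM in mKO, with 3 of 5 higher. Most of that rise was Myog, at 5.86 CPM in WT and 30.2 CPM in mKO. Pax7 had 1.13 and 2.12 CPM, and Myf5 and Cdh15 did not pass. Fibro-adipogenic markers (2 of 7 higher) and adipocyte markers (none of 5 called) were also measured, and of 6 T and B cell markers only Cd4 could be tested, which was higher (log2 1.74).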

How the data were processed

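RNA sequencing libraries of gastrocnemius muscle, 3 WT and 3 mKO, were analysed from raw counts per gene deposited by the authors. The counts are whole numbers that sum to a different total in each library. Per the submitters' processing notes, reads went through STAR 2.5.2b, Trimmomatic 0.36 and, from Subread 1.5.2, featureCounts, with build GRCm38. Each count covers all exons of 1 Ensembl gene, per the file headers. Per the labels' protocols, the NEBNext Ultra kit was used, which as named does not mark strand. Strand setting and the treatment of reads with several matches were not given in the sources used here, so exons shared with an opposite gene can exchange counts. Symbols came from a gene table that matched 48970 of 49315 identifiers.

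All genes were fitted together with edgeR 4.0.16 in R 4.3.3 (TMM factors, default expression filter, quasi-likelihood test, group as the only term), and p-values were adjusted over all 16650 genes tested. The standard error is the log2 change divided by the square root of F. CPM uses the TMM-scaled library size and is divided by summed exon length for levels between genes. The biological coefficient of variation was 16.1%. This procedure was tested on simulated data in which a small part of the genes changed, with equal numbers of rises and falls. The simulation held no broad shift between the groups, so it cannot check the dependence on scaling.

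Members and lists were chosen with earlier results of these data known. Genes given in full are those with mean CPM of at least 1, adjusted p under 0.05 and at least 2-fold change, 17 muscle channel genes listed by name, and the 5 highest per length, 21 in all. Other members are given more briefly. Some genes and sequences are counted but not reported here by name or letters. Alternatives were DESeq2 1.42.0, limma-voom (limma 3.58.1), other scaling, other filters, a robust fit, the replicate number as a block, and leaving out each library.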

Additional observations from a re-analysis of the deposited data

How the results depend on the processing

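Of the 22 called members, 12 were called under all 14 alternatives: Kcnab1, Kcnab2, Kcne1l, Kcnf1, Kcng4, Kcnh7, Kcnj8, Kcnj11, Kcnj12, Kcnn1, Kcnn3 and Kcnq5. The number of members called higher (8) ranged from 5 to 8 when each library was left out in turn and was 5 without WT replicate 3, mKO replicate 1 or mKO replicate 2. The number called lower (14) ranged from 12 to 14 in those fits. With library totals, 19 partner genes were higher and 11 lower, against 3 and 17 with TMM, and without a low-count filter 5 were higher. Left-out libraries gave 2 to 4 higher and 16 to 18 lower partner genes. Among the 21 tested members without a call, the sign turned in at least 1 alternative for 13. With library totals it turned for Kcnc1 (log2 0.0912), Kcnc4 (0.39), Kcnj2 (0.15), Kcnma1 (0.20), Kcna5 (0.33), Kcna6 (0.0929), Kcnk5 (0.29), Kcnh2 (0.14) and Kcnt2 (0.27). It also turned for Kcnc4 with limma-voom (0.0172) and without WT replicate 1 (0.25), for Kcnq1 without WT replicate 2 (-0.18), and for Kcne4, Kcnj15, Kcnt2 and Kcnh2 when 1 library was left out. Left-out libraries gave log2 -0.33 to 0.25 for Kcnc4 and -0.18 to 1.04 for Kcnq1. The cause was not tested. With library totals, 9283 genes in all were called, 8159 of them higher, against 6166 and 3022.

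The replicate numbers are shared by the groups in the labels, but same-numbered libraries did not deviate together (correlation of deviations -0.01, -0.02 and 0.04 for numbers 1, 2 and 3), and not every library correlated best with its own number. With the replicate number as a block, 7 members were higher and 13 lower, and 2 partner genes were higher and 17 lower. Members under about 1 CPM rest on few counts, and many of their differences were not detectable at this depth.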
